A study of Caenorhabditis elegans with 4 samples.

Results

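The 6mA peak list of *Caenorhabditis elegans* held 10 peaks whose nearest gene encodes a chemoreceptor, out of 365 listed peaks, of which 364 were nuclear. They were taken as the rows whose gene name was *sre-47*, *srg-36*, *srh-19*, *srh-183*, *srh-296*, *sri-54*, *srsx-9*, *srw-39*, *srw-82* or *srx-113*, with 1 peak for each gene. The label was checked against the gene descriptions, and the table describes all 10 as serpentine receptors and types all 10 as protein-coding. The genes were chosen by the positions of the listed peaks, each being the gene named as nearest to one, so their presence in the list is not a result.

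N6-methyladenine (6mA) is a DNA base modification that can be enriched with an antibody and sequenced (methylated DNA immunoprecipitation, MeDIP-seq), and regions with piled-up fragments are called as peaks. The series comprised 4 genomic DNA libraries of whole wild-type animals of the strain Bristol grown from eggs at 22 °C and taken at the L4 larval stage. Animals given 1.92 µM antimycin, an inhibitor of the mitochondrial respiratory chain, supplied 1 library made with an antibody sold against N6-methyladenosine, whose title gives 1.93 µM, and 1 library with no antibody. Untreated animals supplied the same pair. The data are 1 peak list that no label ties to a library, with no peak heights, read counts or p-values, so depth is unknown, no comparison of antimycin-treated with untreated animals was made, and the peaks could not be ranked by strength. Whole-animal DNA does not show in which cells a modified site lies.

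Chemoreceptors of nematodes are seven-transmembrane proteins, and many sit on the cilia of sensory neurons, where they bind odours, tastants or pheromones and signal through G proteins. They form one of the largest gene groups of *C. elegans* and are named by family (*srh*, *srw*, *str* and so on), with the families sorted by sequence into the Str, Sra and Srg superfamilies and several families outside these. Many of the genes lie side by side in tandem arrays on the arms of chromosome V, and many copies are pseudogenes.

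The 10 genes came from 7 of 22 families. The Str superfamily, the largest, supplied 4 of them, namely *srh-19*, *srh-183*, *srh-296* and *sri-54*, and it holds 723 of the 1628 chemoreceptor genes in the reference gene table (44.4%). The Srg superfamily supplied *srg-36* and *srx-113* and holds 380 genes (23.3%). The Sra superfamily supplied *sre-47* and holds 141 genes (8.66%). The remaining 3, *srsx-9*, *srw-39* and *srw-82*, belong to families outside these superfamilies, which hold 384 genes (23.6%). The *srw* family resembles neuropeptide receptors in sequence. By family, *srh* had 3 of 292 genes in the list, *srw* 2 of 145, *srx* 1 of 137, *sri* 1 of 78, *srg* 1 of 68, *sre* 1 of 56 and *srsx* 1 of 40. None of the other 15 families had a gene nearest to a listed peak, the largest of them being *str* (226 genes), *srz* (105) and *srbc* (84). No chemoreceptor pseudogene, of 320 in the gene table, was nearest to a listed peak. The same count over all pseudogenes was not made, so this is not read as a trait of chemoreceptor pseudogenes. As a share, 0.765% of the 1308 protein-coding chemoreceptor genes were nearest to a listed peak, and 1.28% of all 19983 protein-coding genes were.

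Of 20 chosen chemoreceptors with a described ligand, sensory role or neuron, *srg-36* was the single gene with a listed peak. The list of 20 was made with earlier results of these data known, so finding *srg-36* on it is not a result. *srg-36* (sequence name K04C1.6) acts with its neighbour *srg-37* as a receptor for an ascaroside pheromone that promotes entry into the dauer larva. *srg-37* had no listed peak of its own. None of the other 9 genes is on the list of 20, and whether any has a described ligand, role or neuron was not looked up.

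The promoter class held 2 of the 10 peaks. The peak nearest to *srh-19* (F19G12.5, chromosome X, 1412150 to 1412768, 619 bp) lay 685 bp upstream of its start and was the closest of the 10. At *srw-82* (ZK262.7), the peak (chromosome V, 18430761 to 18431056) lay 842 bp upstream and, at 0.296 kb, was the narrowest. Taking each distance from the peak's centre, which the table does not state, both peaks ended short of the start, by 376 bp at *srh-19* and 694.5 bp at *srw-82*. The promoter class thus held 20% of the chemoreceptor peaks (exact 95% binomial interval 2.52 to 55.6%), against 138 of all 364 nuclear peaks (37.9%, 32.9 to 43.1%). These intervals cover counting error only, and the interval for 10 peaks takes in the share of the whole list.

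Intergenic peaks numbered 4 of 10 (40.0%, 12.2 to 73.8%), against 79 of 364 nuclear peaks (21.7%, 17.6 to 26.3%). Of the 261 nearest to protein-coding genes, 63 were intergenic (24.1%, 19.1 to 29.8%). The interval for 10 peaks takes in both shares. The peak nearest to *srx-113* (F56H9.1, chromosome V, 12632925 to 12633603, 679 bp) lay 1116 bp upstream of the start. At *sre-47* (Y39G8B.4), the peak (chromosome II, 13985603 to 13986758) lay 1529 bp upstream. Its 1156 bp made it by far the widest of the 10 and number 11 in width among the 364 nuclear peaks. That of *srw-39* (F19B2.3, chromosome V, 20175347 to 20175795, 449 bp) lay 3530 bp upstream. That of *srsx-9* (F26G5.10, chromosome V, 4968191 to 4968640, 450 bp) lay 4628 bp downstream of the start, the greatest distance of the 10. As the table calls it intergenic, the *srsx-9* peak lay outside the gene model that the authors used.

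Intron peaks numbered 2 of 10 (exact interval 2.52 to 55.6%), against 75 of 364 nuclear peaks (20.6%, 16.6 to 25.1%) and 65 of the 261 nearest to protein-coding genes (24.9%). The peak nearest to *srh-296* (Y94A7B.4, chromosome V, 17811183 to 17811510, 328 bp) lay in intron 1 of 2 of that gene, 993 bp downstream of its start. It was the single peak of the 10 placed in an intron of the chemoreceptor gene itself. At *sri-54* (T10D4.8), the peak (chromosome II, 3133741 to 3134188, 448 bp) lay 3940 bp downstream of its start. Its intron is assigned to a transcript that the gene table gives to the non-coding RNA gene Y53F4A.5.

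The class of transcription termination sites also held 2 of 10 (2.52 to 55.6%), against 57 of 364 nuclear peaks (15.7%, 12.1 to 19.8%) and 40 of the 261 (15.3%). For both classes the interval for 10 peaks takes in the share of the whole list. The peak nearest to *srg-36* (chromosome X, 14229412 to 14229751, 340 bp) was assigned to the termination site of *srg-36* and lay 1295 bp downstream of its start. At *srh-183* (Y60A3A.3), the peak (chromosome V, 19975540 to 19976127, 588 bp) lay 2487 bp downstream of its start. It was assigned to the termination site of the gene directly before it in the gene order, *srh-173*, a member of the same family. No exon held any of the 10 peaks (0 of 10, which allows a share of up to 30.8% by the exact interval), and exons held 13 of all 364 (3.57%).

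**Figure D1:**
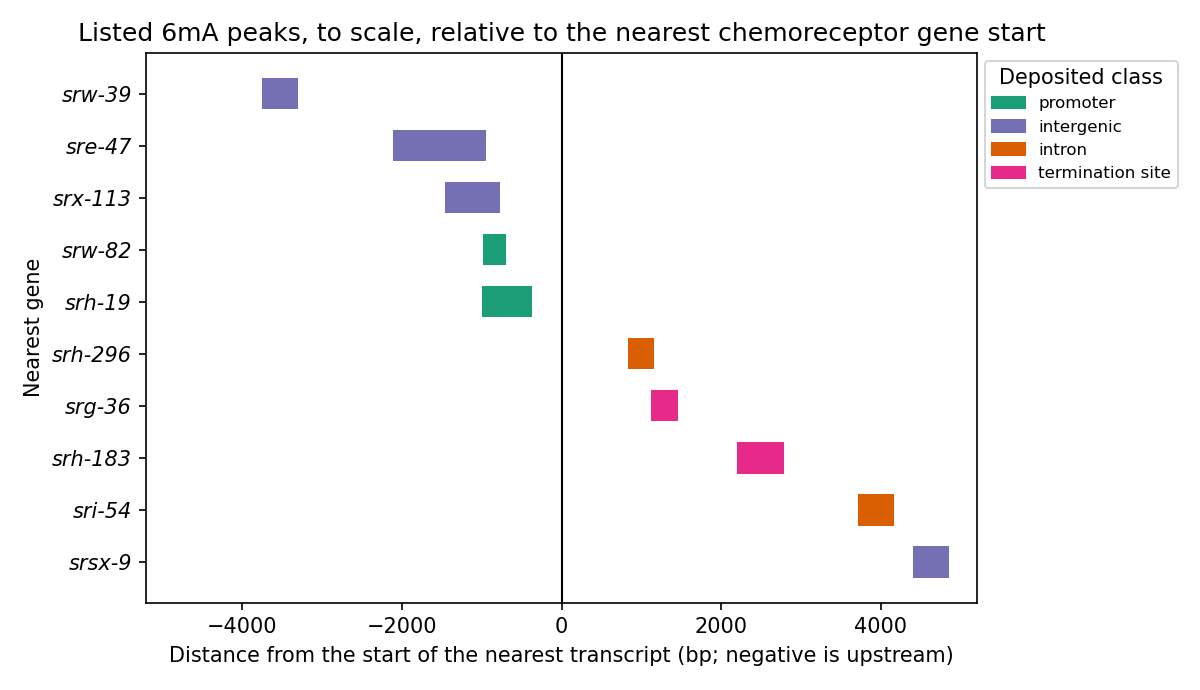
Each bar is 1 listed peak drawn to scale at its distance in bp from the start of the nearest chemoreceptor transcript, with negative distances upstream and the colour giving the deposited annotation class. The 5 upstream peaks run from 685 bp (*srh-19*) to 3530 bp (*srw-39*), the 5 downstream peaks run from 993 bp (*srh-296*) to 4628 bp (*srsx-9*), and no bar reaches the start.

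The peaks divided evenly between the sides of the start, with 5 upstream and 5 downstream, against 206 upstream and 158 downstream among all nuclear peaks. Their median distance from the start, on either side, was 1412 bp (range 685 to 4628 bp, interval of the median from ranked values 842 to 3940 bp). All nuclear peaks had a median of 1104.5 bp (range 1 to 9349 bp), and the 261 peaks nearest to protein-coding genes had 1325 bp. Within 1000 bp of the start lay 3 of the 10, at *srh-19*, *srw-82* and *srh-296*. Among all nuclear peaks 171 of 364 did (46.98%), as did 102 of the 261 nearest to protein-coding genes (39.1%). Beyond 3000 bp lay another 3, at *srw-39*, *sri-54* and *srsx-9*, against 58 of 364 (15.9%) and 48 of the 261 (18.4%). No chemoreceptor peak covered the start it was nearest to, while 53 of 364 nuclear peaks (14.6%, 11.1 to 18.6%) and 17 of the 261 nearest to protein-coding genes (6.51%, 3.84 to 10.2%) did. With 10 peaks, 0 allows a share of up to 30.8%, so a difference was not detectable. These values describe 1 list, and no test of a difference between the 10 peaks and the rest was made.

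Widths ran from 0.296 kb at *srw-82* to 1156 bp at *sre-47*, with a median of 449.5 bp (interval 328 to 679 bp), and the 10 peaks together spanned 5353 bp. The 364 nuclear peaks had a median of 404 bp and a range of 229 to 1732 bp. The 3 peaks nearest to *sri-54*, *srw-39* and *srsx-9* had nearly the same width (448, 449 and 450 bp) and were also the 3 farthest from a start. The narrowest 3, at *srw-82*, *srh-296* and *srg-36*, measured 0.296 kb, 328 bp and 340 bp and lay 842, 993 and 1295 bp from their starts. The *sre-47* peak stood apart in width alone, its 1529 bp to the start being near the middle of the range.

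**Figure D2:**
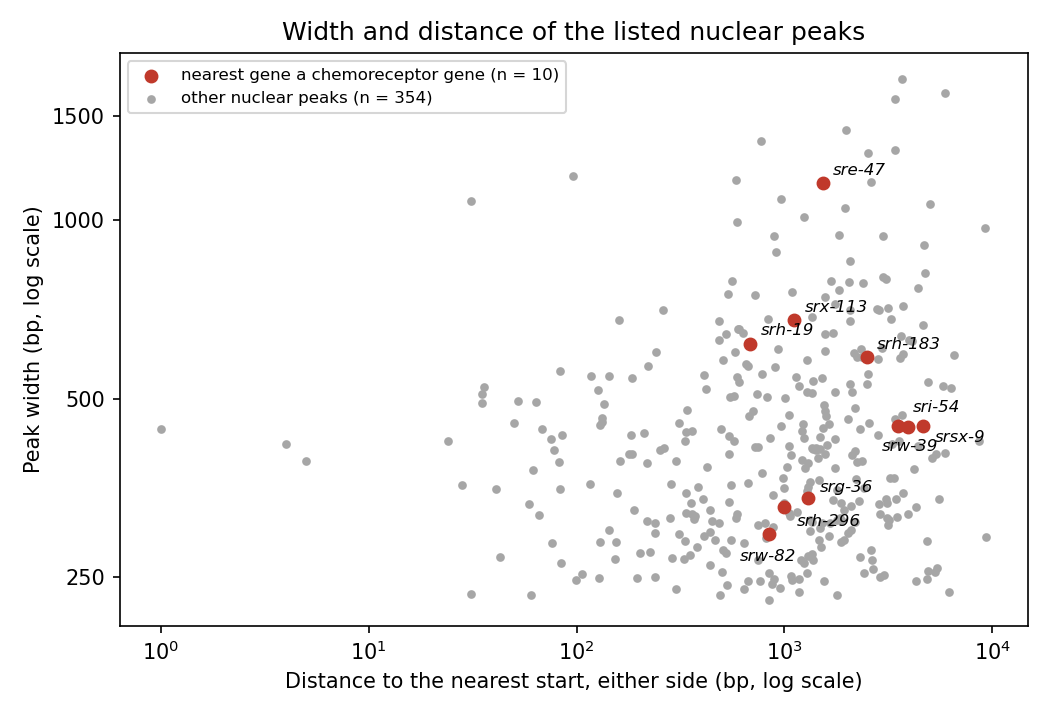
Each point is 1 listed nuclear peak, with its distance to the nearest start on either side (bp, log scale) on the x axis and its width (bp, log scale) on the y axis, the 10 chemoreceptor peaks being red and the other 354 grey. The red points lie within the spread of the grey ones, none is closer to a start than 685 bp, and *sre-47* is the widest of the red points at 1156 bp.

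Chromosome V carried 6 of the 10 peaks, chromosomes II and X carried 2 each, and chromosomes I, III and IV had none. Chromosome V holds 1112 of the 1628 chemoreceptor genes in the gene table (68.3%) and carried 62 of the 364 nuclear peaks (17.0%). Chromosome IV holds 195 chemoreceptor genes (11.98%) and carried 63 listed peaks, none of which was nearest to one of these genes. Chromosome X carried 72 nuclear peaks (19.8%) and holds 36 chemoreceptor genes (2.21%), of which *srh-19* and *srg-36* had a listed peak. *srh-19* is 1 of 4 *srh* genes on chromosome X, whereas chromosome V holds 242 of the family's 292. *srg-36* is 1 of 3 *srg* genes on chromosome X. *sri-54* and *sre-47* lie on the chromosome that holds most of their families, since chromosome II carries 42 of 78 *sri* genes and 34 of 56 *sre* genes.

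Position along the chromosome was measured in percent of the distance between the first and the last listed peak, since chromosome lengths of the build ce10 were not used. By this measure 9 of the 10 peaks lay outside the middle 33.3% of their chromosome (90.0%, 55.5 to 99.7%), against 273 of 364 nuclear peaks (75.0%, 70.2 to 79.4%). *srx-113*, at 60.3% of chromosome V, was the exception. On chromosome V, *srsx-9* lay at 23.0%, *srh-296* at 85.5%, *srw-82* at 88.5%, *srh-183* at 96.0% and *srw-39* at 96.98%. On chromosome II, *sri-54* lay at 20.9% and *sre-47* at 94.8%, and on chromosome X *srh-19* lay at 4.79% and *srg-36* at 79.8%. The right end of chromosome V held the largest group, with 4 chemoreceptor peaks among the 15 listed peaks of its last 20%. These 15 made up 24.2% of the 62 listed peaks of chromosome V. What share of its chemoreceptor genes lies in that part was not worked out. The other 11 peaks there include those nearest to the lectin gene *clec-9*, the potassium channel gene *twk-33* and *cutl-4*.

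**Figure D3:**
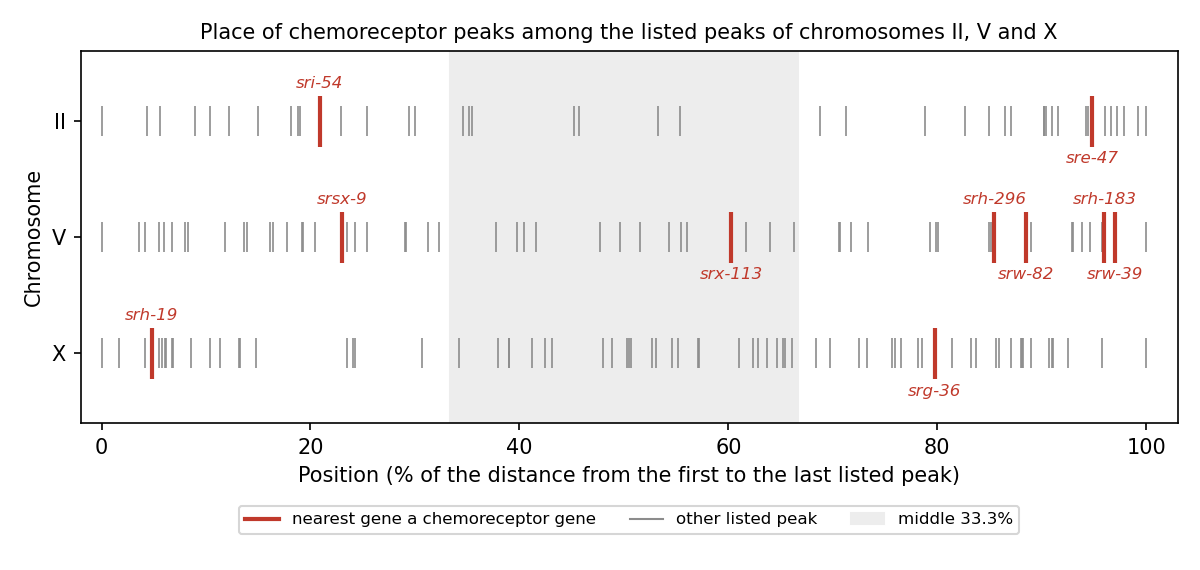
Ticks show the listed peaks of chromosomes II, V and X by position, in percent of the distance from the first to the last listed peak, with chemoreceptor peaks in red and labelled, other peaks in grey and the middle 33.3% shaded. *srx-113* at 60.3% of chromosome V is the single red tick in the shaded part, and 4 red ticks stand beyond 80% on chromosome V.

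The order of genes in the reference table of the assembly WBcel235 was used to see which genes lie beside the 10, taking 5 protein-coding genes on each side. *srh-296* lay deepest in a tandem array. Of its 10 neighbours 9 were chemoreceptor genes and 8 of these were *srh* genes, with *srh-291* before it and *srh-298* after it. *srsx-9* had 8 chemoreceptor neighbours, 4 of the *srsx* family after it (*srsx-10* to *srsx-13*) and 4 *str* genes before it, beyond its immediate neighbour *tam-1*. *srh-183* had 4, which were *srh-171*, *srh-172*, *srh-173* and *sri-67*. *sri-54* had 3 (*srh-71*, *sri-42* and *sri-43*) and stood between *chil-24*, a chitinase-like gene, and *sri-42*.

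The other 6 genes had few chemoreceptors around them. *srw-82* had 2, with *srw-83* directly before it and ZK262.20 after it. *srw-39* had 2 of other families, *srz-16* directly after it and *srh-217*, with F19B2.5 before it. *srg-36* had 1, *srg-37*, directly after it, and the cytochrome P450 gene *cyp-13B2* before it. *sre-47* had 1, *sre-48*, which was not adjacent, and lay between Y39G8B.13 and Y39G8B.5. *srx-113*, between F56H9.6 and F56H9.2, and *srh-19*, between *abu-2* and F19G12.4, had none. Chemoreceptor pseudogenes were directly beside 2 of the 10 genes when all gene types were counted, namely *sri-56* at *sri-54* and *srz-34* and *srz-36* on either side of *srw-39*.

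In all, 30 of the 100 neighbours were chemoreceptor genes, 20 of the same family and 10 of another. A chemoreceptor stood directly next to 7 of the 10 genes, a count that was not made over all chemoreceptor genes. The median was 2 chemoreceptor genes among 10 neighbours (range 0 to 9). Across all 1308 protein-coding chemoreceptor genes the median was 4 (range 0 to 10), and 168 of them (12.8%) had none. The 245 other protein-coding genes nearest to a listed peak had a median of 0, and 208 of them (84.9%) had none. The 10 genes thus include isolated receptors as well as members of dense arrays.

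**Figure D4:**
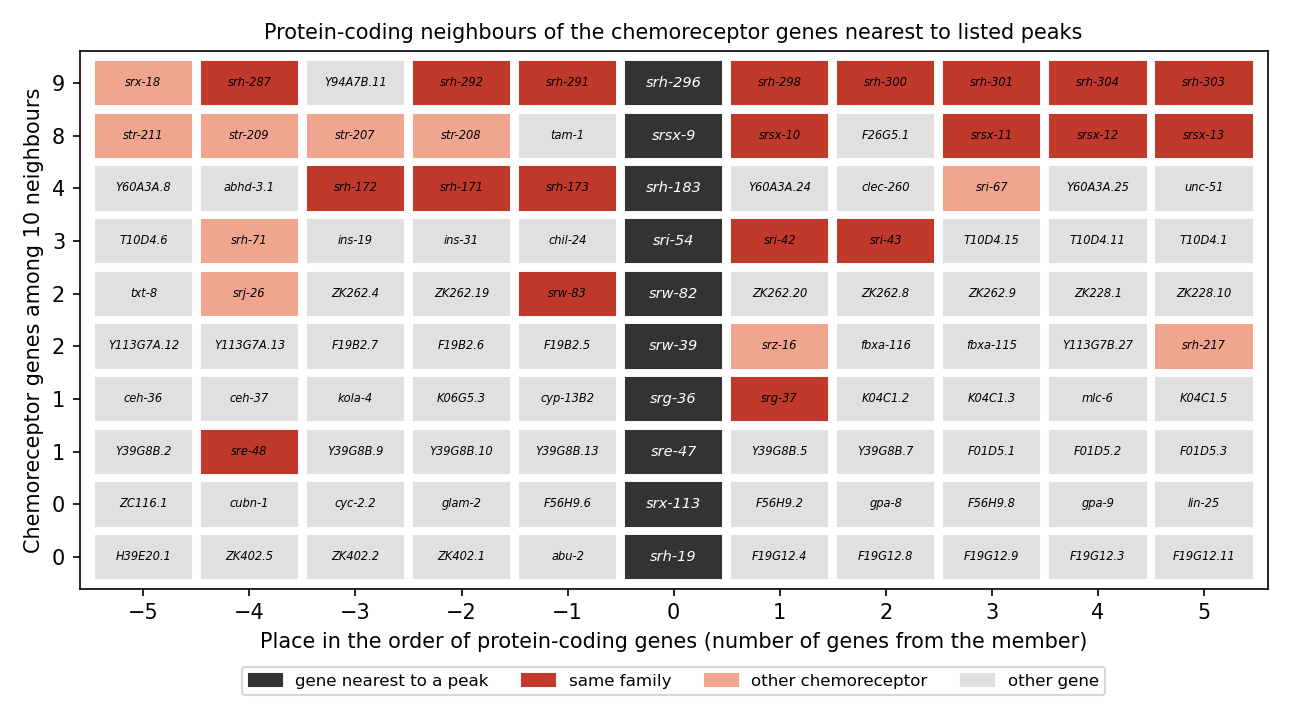
Each row is 1 chemoreceptor gene nearest to a listed peak (black) with the 5 protein-coding genes on either side in table order along the x axis, red for the same family, light red for another chemoreceptor family and grey for other genes, and with the number of chemoreceptor genes among the 10 neighbours on the y axis. *srh-296* (9) and *srsx-9* (8) head the rows, and *srx-113* and *srh-19* have 0.

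The nearest gene and the gene to which the table assigns a peak could differ. For 5 of the 10 peaks an assigned transcript could be matched to a gene. Of these, 2 (40.0%, 5.27 to 85.3%) belonged to another gene, *srh-173* at *srh-183* and Y53F4A.5 at *sri-54*. Among all nuclear peaks 69 of 246 did so (28.0%, 22.5 to 34.1%). At *srg-36*, *srh-19* and *srh-296* the assigned gene was the nearest gene. At *srw-82* the table gives the same transcript for the assignment and for the nearest start, but the gene table does not hold it. The 4 intergenic peaks carry no assigned transcript. Only these 4 matched chemoreceptor assignments (*srg-36*, *srh-19*, *srh-296* and *srh-173*) occur in the list, so no peak nearest to a gene of another kind was assigned to a matched chemoreceptor transcript.

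The *sri-54* peak had the closest listed neighbour of the 10. A 628 bp peak nearest to *chil-24* (chromosome II, 3132820 to 3133447) ended 293 bp before it, with 831 bp between the centres, which is also the smallest spacing of any pair of nuclear peaks in the list. That peak lay 3954 bp downstream of the *chil-24* start, and the *sri-54* peak lay 3940 bp downstream of the *sri-54* start. If each named start is the nearest one and distances run from peak centres, only 1 arrangement of strands fits. In it, *chil-24* and *sri-54* run toward each other from starts 8725 bp apart, with both peaks between the starts. Both peaks were assigned to intron 1 of 1 of the same Y53F4A.5 transcript, and no other listed peak was. The gene table places Y53F4A.5 on the same chromosome but with 2643 protein-coding genes between it and *sri-54*, so the assignment and the table differ on where this transcript lies. The source of that difference was not tested.

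Other listed peaks within 50 kb were found beside 3 further genes. At *srx-113*, a promoter peak of 309 bp nearest to F56H9.2, the adjacent gene, lay 4183 bp away and 239 bp upstream of its start. A promoter peak nearest to *erg-28* lay 26184 bp away on the other side. At *srw-39*, an exon peak nearest to Y113G7B.12 lay 35802 bp away, and at *srh-183* an intron peak nearest to *algn-7* lay 46277 bp away. The median distance to the closest listed peak was 62.2 kb for the 10 (range 0.831 to 204.9 kb) and 81.5 kb for all nuclear peaks. Chemoreceptor peaks followed each other directly in the list in 2 cases, both near the right end of chromosome V. *srh-296* and *srw-82* were 619.6 kb apart, and *srh-183* and *srw-39* 199.7 kb apart, with no other listed peak between them.

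Genes that act with chemoreceptors in sensory neurons were looked up in the same list, in which 1.28% of all protein-coding genes were nearest to a peak. None of 27 genes of sensory signalling or chemoreceptor transport was nearest to a listed peak, with 26 names matched in the gene table. They include the G protein alpha gene *odr-3*, the guanylyl cyclase gene *daf-11* and the cyclic nucleotide-gated channel genes *tax-2* and *tax-4*. These 27 were chosen with earlier results known and leave out other signalling genes. *egl-30*, *gcy-28*, *pde-6* and *gsa-1*, which are not among them, were each nearest to a listed peak. Of 32 genes of ciliated sensory neurons and cilia, 2 had a listed peak (6.25%). Counts this small were not tested against the share of all genes. The peak at *daf-19*, which encodes the RFX factor that turns on cilium genes, was a promoter peak 226 bp upstream. The peak at *osm-12*, which encodes a subunit of the ciliary BBSome, lay in an intron 3711 bp downstream of the start (chromosome III, 12198381 to 12199098). Because the depth behind the list is unknown, absence from it does not show that a gene lacks 6mA.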

How the data were processed

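Genomic DNA of 4 libraries was sequenced, and the series has 1 deposited list of annotated peaks. Per the submitters' processing notes, the build was ce10 and the tools were MACS2 2.1.0, Bowtie2 2.2.6, Trimmomatic 0.35 and Picard, with no role stated. How peaks were annotated, where the classes begin and end, and why a peak was listed is not given in the sources used here. Per the file headers, the deposited positions and signed distances to the nearest start are in bp. All peak names share the prefix PO_AA_rep1, which no label explains, so the list was assigned to no library.

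Width is end minus start plus 1. All 10 genes matched the RefSeq gene table of WBcel235 by symbol, and 8 of their 10 nearest-start transcripts matched. Because that assembly differs from ce10, it served for names, families, gene types and gene order, and no coordinate of it is given. Nearest genes under older names were matched by synonym or transcript. Sequences of the peaks, promoters and proteins were not used here. Shares carry exact (Clopper-Pearson) 95% intervals. Medians carry intervals from ranked values.

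The 10 genes, the gene lists and the choices above were made with earlier results of these data known. The genes named are the 10, their adjacent genes, the genes of assigned transcripts, and genes of listed peaks within 50 kb. Other names were chosen after the values were seen. No test was run, since the list has no replicates. Python 3.11.15, NumPy 2.4.6, pandas 2.3.3, SciPy 1.17.1 and Matplotlib 3.10.9 were used.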

Additional observations from a re-analysis of the deposited data

How the results depend on the processing

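The count of 2 chemoreceptor peaks in promoters depends on how a promoter is defined. With a window from 500 bp before to 100 bp after the start it was 0 (78 of 364 among all nuclear peaks), with 1000 bp before it 2 (123 of 364) and with 2000 bp before it 4 (179 of 364), the wider window taking in *srx-113* and *sre-47* by its construction. The count of 9 peaks outside the chromosome middle was also 9 with the middle taken as the central 50% of the span (226 of 364 among all nuclear peaks), as the middle 33.3% of the order of listed peaks (244 of 364) and as that of the gene order (201 of 255 that could be placed). Comparing transcripts by accession, an alternative added after seeing the data, gave 2 of 6 peaks assigned to another transcript, against 35.4% of 285 nuclear peaks, in place of 2 of 5 against 69 of 246 (28.0%). The chemoreceptor share was 33.3% by accession (4.33 to 77.7%) and 40.0% by gene (5.27 to 85.3%). Each interval takes in the share of the list, so no direction can be read from these counts. The mean width was 535.3 bp, and the median without the *sre-47* peak was 449 bp. Measured from the nearest edge of the peak, the median distance to a start was 1038.5 bp. Matching transcripts by sequence name was not run, because the table gives accessions only. No paired analysis was possible because the single list carries no replicate number and is tied to no library. The small number of peaks limits every share given.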

Other observations

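Peak numbers run in coordinate order on all 6 nuclear chromosomes and reach 1645, while 365 peaks are listed (22.2%). What the unlisted numbers stand for is not stated. If they are peaks numbered in the same order, they give how many lay between the chemoreceptor peaks and the listed peaks beside them. The peaks nearest to *srh-183* and *srw-39* carry consecutive numbers, so on that reading no numbered peak lay in the 199.7 kb between them. Between *srh-296* and *srw-82*, 619.6 kb apart, there were 10 unlisted numbers. The *srsx-9* peak had 7 unlisted numbers in the 524.96 kb before it and none in the 96.9 kb after it, and the *sre-47* peak had 9 in the 183.2 kb after it. In all, 7 of the 10 peaks had a number consecutive with a listed neighbour, as did 152 of all 364 nuclear peaks (41.8%), a difference that was not tested. Why the other numbers are not in the list was not tested.

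*srx-113* had no chemoreceptor gene among its 10 neighbours, but the G protein alpha subunit genes *gpa-8* and *gpa-9* were among them. The homeobox genes *ceh-36* and *ceh-37*, which act in sensory neurons, were among the neighbours of *srg-36*. None of these 4 genes was nearest to a listed peak. They were picked out after the neighbours had been seen, and whether such neighbours are usual for chemoreceptor genes was not tested.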
